A study of Mus musculus with 24 samples.

Results

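Messenger RNA of the respiratory chain and the ATP synthase was examined in mouse dendritic cells grown from bone marrow. Genes were chosen by name: protein-coding genes whose symbol starts with mt-Nd, mt-Co, mt-Cyt, mt-Atp, Nduf, Uqcr or Atp5, together with Sdha, Sdhb, Sdhc and Sdhd, and a mean of 5 or more on the counts-per-million scale (CPM) over the 24 libraries. Of 21927 named protein-coding genes 89 carried such a symbol, and 79 of these reached the level. They were 7 of the 13 genes of the mitochondrial genome and 72 nuclear genes: 36 subunits of complex I, 7 assembly factors of complex I, Ndufa4, all 4 subunits of complex II, 8 of complex III and 16 of the ATP synthase. Just inside the level were Ndufaf8 at a mean of 5.75 CPM and Ndufaf2 at 6.06 CPM, and just outside it was Atp5s at 4.02 CPM.

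The cells came from Cas9-EGFP or wild-type C57BL/6JRj mice, and the genotype behind each library was not known here. In GM cultures, called moDCs by the submitters, marrow was grown with 20 ng/ml GM-CSF and taken on day 8. In FL cultures, called cDC1 by the submitters, it was grown with FLT3L at 200 ng/ml and GM-CSF at 20 ng/ml and taken on day 16. Each culture type was sampled at the start (t0) and after 24 h with DMSO, the solvent, or with AZD5582, a SMAC mimetic that antagonises the inhibitor of apoptosis proteins, at 0.1, 0.5 or 1 µM in GM cultures and at 0.05 µM in FL cultures. Every one of the 8 groups had 3 libraries, which the submitters describe as biological replicates; whether the 3 GM libraries of a group came from separate animals is not given, so p-values measure the spread between these libraries. The libraries held 27012555 to 85820558 counts in genes.

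Oxidative phosphorylation takes electrons from NADH at complex I and from succinate at complex II, passes them through complex III and cytochrome c to oxygen at complex IV, and uses the proton gradient that results to drive the ATP synthase. Mitochondrial DNA encodes the hydrophobic cores of complexes I, III, IV and the ATP synthase, complex II is wholly nuclear, and the remaining subunits are imported from the cytosol. Dendritic cells and macrophages are known to shift between respiration and glycolysis as they mature.

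The files hold little signal for 6 of the 13 mitochondrial mRNA genes, and the sequence shows where this coincides with a second copy in the nuclear genome. Per kilobase of transcript, mt-Co1, the catalytic core of complex IV, had a mean of 9705 CPM, mt-Cytb of complex III 4339, and the complex I genes mt-Nd1 4123, mt-Nd5 2083, mt-Nd2 2003 and mt-Nd4 1515. On the same scale mt-Co2 had 3.07, mt-Co3 2.48, mt-Atp6 1.84, mt-Nd3 1.11, mt-Atp8 1.07 and mt-Nd4l 0.257. Between these levels lay mt-Nd6 at 20.8, far below the other members. In 5 of these 6 low genes, 98.0% to 100% of all 50-base windows of the transcript also occurred in another annotated gene; in mt-Atp8, which is low too, 0% did. Among the 7 higher genes the share was 62.2% for mt-Nd4, 51.1% for mt-Co1, 8.19% for mt-Nd2, 7.61% for mt-Nd5 and 0% for mt-Nd1, mt-Cytb and mt-Nd6. The copies are pseudogenes: all 681 compared bases of Gm28661, on chromosome 1, are those of mt-Co2, as are all 783 of Gm28437 for mt-Co3, all 678 of Gm10925 for mt-Atp6 and all 876 of Gm28439 for mt-Nd4, while Gm29216 matched mt-Co1 at 486 of 492 bases. The start of the mt-Co2 transcript is printed beside that of its copy (60 bases each, GRCm38 transcripts of GENCODE M21) because a read from either could not be assigned to one of them:
mt-Co2: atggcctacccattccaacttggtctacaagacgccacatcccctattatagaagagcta
Gm28661: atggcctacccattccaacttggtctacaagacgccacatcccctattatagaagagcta
The copies themselves held few counts as well, with a mean of 3.69 CPM for Gm28661 and 2.93 for Gm29216. How reads with several matches were counted was not tested, and shared windows cover neither mt-Atp8 nor mt-Nd6. The order of these levels is given as the files hold it and not as the amount of each RNA in the cells.

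**Figure D1:**
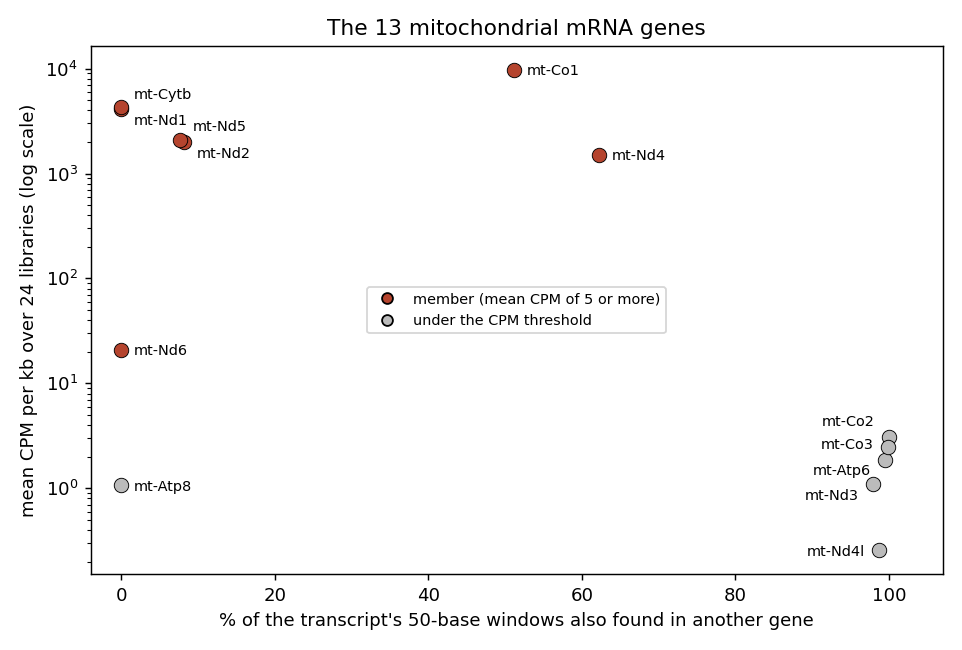
Level of each of the 13 mitochondrial mRNA genes (mean CPM per kilobase over 24 libraries, log scale) against the share of its 50-base windows that also occur in another annotated gene. The 5 genes at 98.0% or more lie at 3.07 CPM per kilobase or less, whereas the 6 most abundant genes lie at 1515 or more, mt-Nd4 and mt-Co1 among them at 62.2% and 51.1%. At 0%, mt-Atp8 is low and mt-Nd6 lies between these levels at 20.8.

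Some libraries stood apart from their groups, and GM 1 µM library 1 (DC105_1) did so most. In this library the 7 mitochondrially encoded genes took 7.12% of gene counts, against 3.63% and 3.90% in the other two libraries of the group and 1.27% to 4.46% in the remaining 21. Of its 72 nuclear members 65 were the highest of the 3 libraries, where 41.0% of all 10068 genes with a mean of 5 CPM or more were, and the median nuclear member lay 0.51 above the other two on the log2 scale. Reads set aside for low alignment quality made up 12.1% in this library against 8.22% and 8.55%, and ribosomal protein genes 4.29% of counts against 3.40% and 3.57%. GM DMSO library 3, a control of every GM drug comparison, was the highest of its 3 for all 7 mitochondrially encoded genes, by a median of 0.56 on the log2 scale. It was the lowest for 57 of 72 nuclear members, by a median of -0.17, and for 41.7% of all genes. GM DMSO library 1 was the highest for 56 of 72 nuclear members (median 0.15) and for 36.3% of all genes. FL DMSO library 94 was the highest for all 7 (median 0.75), for 55 of 72 nuclear members (median 0.34) and for 32.9% of all genes. FL DMSO library 91 was the lowest for 51 of 72 nuclear members (median -0.43) and for 43.2% of all genes, with a mitochondrially encoded median of -0.58. FL t0 library 91 was the lowest for 56 of 72 nuclear members (median -0.23) and for 36.1% of all genes. GM 0.5 µM library 1 was the highest for all 7 (median 0.24). GM t0 library 1 and GM 0.1 µM library 1 were the highest for 6 of the 7 (medians 0.44 and 0.43). GM t0 library 2 and FL 0.05 µM library 91 were the highest for 0 of them (medians -0.56 and -0.66). The causes were not tested. Results at 1 µM are given with and without library 1, and calls that turn on another library are given beside it.

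The mitochondrially encoded genes together took 2.57% ± 0.555 (SD, n = 3) of gene counts in GM cultures at t0, 3.56% ± 0.794 with DMSO, 3.64% ± 0.619 at 0.1 µM, 4.06% ± 0.394 at 0.5 µM and 4.88% ± 1.94 at 1 µM, or 3.77% ± 0.192 (n = 2) without library 1. In FL cultures the shares were 1.89% ± 0.198 at t0, 2.91% ± 1.14 with DMSO and 2.00% ± 0.672 at 0.05 µM. Within each FL culture the share was lower with AZD5582 than with DMSO: it went from 1.77% to 1.27% in culture 91, from 4.05% to 2.59% in culture 94 and from 2.90% to 2.15% in culture 95. The 72 nuclear members together took 0.765% of counts in GM cultures at t0, 0.604% with DMSO and 0.591%, 0.573% and 0.604% at the rising doses, and 0.618%, 0.519% and 0.517% in the FL groups at t0, with DMSO and with AZD5582. In two-sided exact permutation tests 3 against 3 libraries cannot give a p under 0.1, so the 14 tests made of these shares could not pass the threshold and nothing is read from them. The nuclear share did not overlap between GM DMSO and t0, nor between FL and GM at t0.

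**Figure D2:**
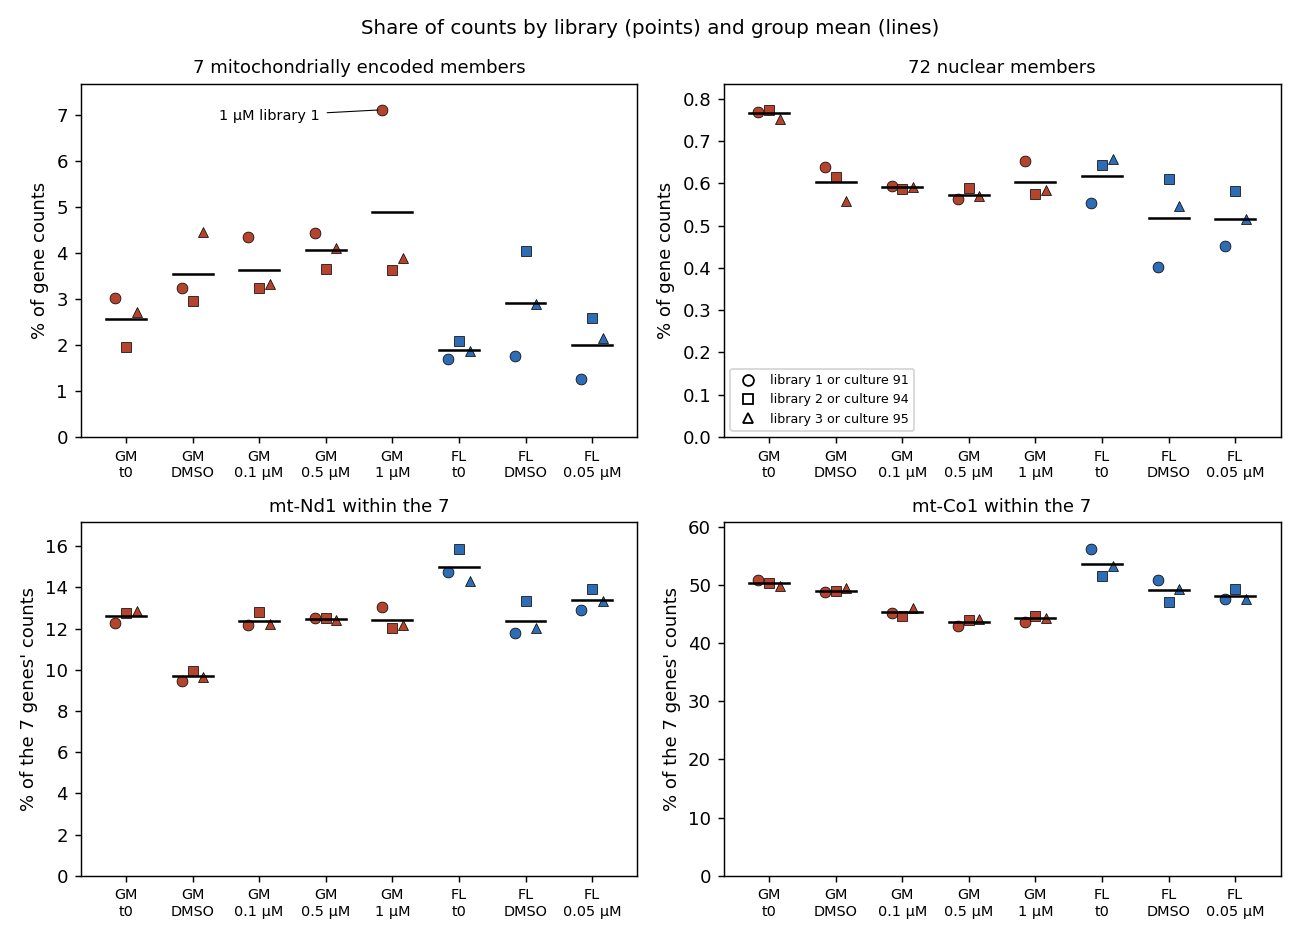
Share of gene counts taken by the 7 mitochondrially encoded and the 72 nuclear members (upper panels) and share of mt-Nd1 and mt-Co1 within the counts of the 7 (lower panels), for each of 24 libraries, with lines at group means. GM 1 µM library 1 is at 7.12% in the first panel, while in the lower panels it lies with its group, and the GM DMSO libraries are lowest for mt-Nd1, at 9.47% to 9.93%.

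Each gene was then tested in a model of all genes, with adjusted p from edgeR's quasi-likelihood test and Benjamini-Hochberg adjustment over all genes. A gene is said to have risen or fallen where the adjusted p was under 0.05. At 0.1 µM 8 members rose and 9 fell against DMSO, all of them nuclear, together 21.5% of the members beside 40.3% of all genes called (19.9% up and 20.3% down). Without 0.1 µM library 2 the count of 17 was 11, beside 35.2% of all genes. At 0.5 µM 13 rose (1 mitochondrially encoded and 12 nuclear) and 12 nuclear members fell, 31.6% of members beside 53.5% of all genes (25.8% up and 27.7% down). Without DMSO library 3 the mitochondrially encoded calls at this dose were 3, beside 50.5% of all genes, and their median went from 0.46 to 0.76. At 1 µM 24 rose (5 mitochondrially encoded and 19 nuclear) and 8 nuclear members fell, 40.5% beside 55.1% of all genes (26.9% up and 28.2% down). Without library 1, 15 rose (1 and 14) and 24 nuclear members fell, beside 53.0% of all genes (25.3% up and 27.8% down). The nuclear median at 1 µM went from 0.12 to -0.12 on the log2 scale when library 1 was left out, and the mitochondrially encoded median from 0.77 to 0.26. With DMSO library 3 left out as well, a choice made after seeing the data, 53.3% of all genes were called. There 16 members rose (3 mitochondrially encoded and 13 nuclear) and 28 nuclear members fell. The medians were 0.55 for the mitochondrially encoded and -0.21 for the nuclear members. The 5 mitochondrially encoded rises were 2 without DMSO library 1 or without DMSO library 2 (47.8% and 48.8% of all genes called). The 8 falls were 4 without DMSO library 1 or 2 or without 1 µM library 2 or 3 (for the latter 50.9% and 50.7%). In a model of all 24 libraries, which scales the treated GM groups 0.07 to 0.11 lower against DMSO on the log2 scale, the balance moved towards falls. There 1 rose and 7 fell at 0.1 µM (22.4% of all genes called, 9.35% up and 13.1% down). At 0.5 µM 6 rose and 15 fell (36.4%, 14.9% and 21.5%), and at 1 µM 11 rose and 7 fell (38.4%, 15.5% and 22.9%). The same difference of scale lies between the fold changes given here, from the model of the GM libraries, and the CPM per library, which were scaled over all 24. Per 10-fold dose 4 members rose and 1 fell over the 3 doses, beside 20.4% of all genes (7.47% up and 12.9% down). Atp5h, Ndufv2, Uqcrh and Ndufaf7 rose and Ndufs1 fell. Without 1 µM library 1 the counts were 4 and 6, beside 19.8% of all genes. The slope count of 5 was 10 without 1 µM library 2 (19.3%) and 9 without 1 µM library 3 (19.5%). It was 2 without 0.1 µM library 2 or 3 (12.1% and 12.7%).

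In the other comparisons the nuclear members moved mostly down among those called. From t0 to DMSO in GM cultures 4 mitochondrially encoded genes rose, 3 nuclear members rose and 21 fell, 35.4% of members beside 47.5% of all genes called (27.2% up and 20.3% down). In FL cultures the same step had 3 rises and 4 falls, beside 10.1% of all genes (4.96% up and 5.18% down). With the culture number as a block, since same-numbered FL libraries varied together, it had 7 rises and 10 falls beside 19.5% of all genes (9.23% and 10.2%). The FL count of 7 went to 0 without the t0 library of culture 91, 94 or 95, beside 0.0787%, 1.41% and 0.0787% of all genes called. Without the DMSO library of culture 94 or 95 it was 3 and 2 (8.86% and 4.79%). Without that of culture 91 it was 6 (6.03%). At t0 1 member was higher and 37 were lower in FL than in GM cultures, 48.1% of members beside 40.9% of all genes called, with 23.4% of all genes called higher and 17.5% lower. Without the FL t0 library of culture 91, 1 was higher and 20 were lower, beside 34.6% of all genes called. With 0.05 µM AZD5582 in FL cultures 0 members passed, beside 2.90% of all genes (1.62% up and 1.28% down). An unadjusted p under 0.05 was seen in 4 (17.5% of all genes did), and DESeq2 called 0, beside 9.56% of all genes. The block called 1, Ndufv2 (beside 6.88% of all genes, 3.69% up and 3.19% down). The change from t0 to DMSO was called different between culture types in 0 members, beside 4.84% of all genes (0.881% up and 3.96% down). At an unadjusted p under 0.05 it differed in 3, beside 18.1% of all genes, and DESeq2 called 1, beside 7.05%. The response to the nearest doses, 0.05 µM in FL and 0.1 µM in GM cultures, where dose and culture type differ together, was called different in 0 members, beside 1.67% of all genes (0.967% up and 0.707% down). Again 3 had an unadjusted p under 0.05, beside 13.2% of all genes, and DESeq2 called 0, beside 3.74%.

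**Figure D3:**
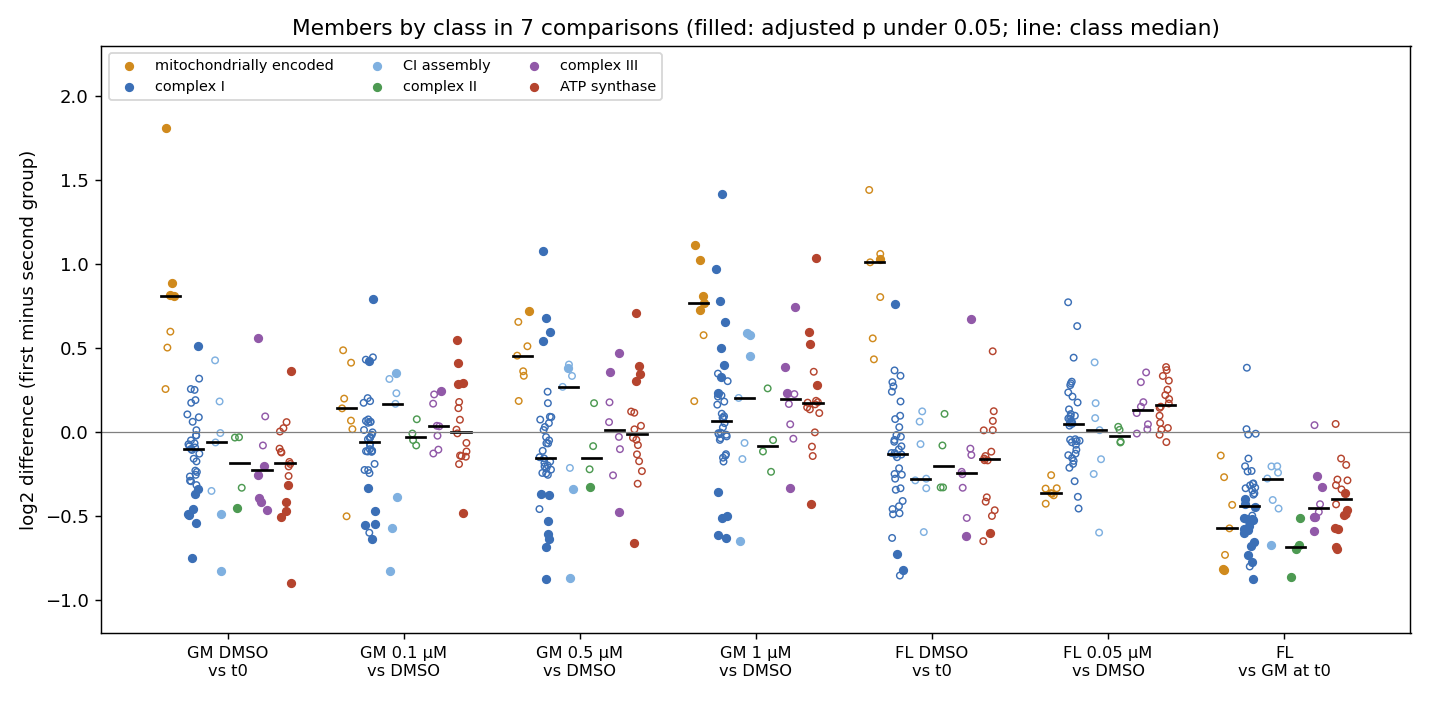
Log2 difference of 78 members (Ndufa4 is not drawn) in 7 comparisons, by class, with filled points for an adjusted p under 0.05 in edgeR's test and a line at each class median. The mitochondrially encoded genes lie above 0 from t0 to DMSO in both culture types and below 0 at 0.05 µM in FL cultures and in FL against GM cultures at t0, while at each GM dose complex I holds rises and falls side by side.

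Markers of cell types moved with the same groups. The summed level of 14 monocyte and macrophage genes had a median of 30590 CPM in the GM DMSO group (range 29810 to 36360) and of 13170, 6896 and 5279 CPM at the rising doses (12300 to 13220, 6353 to 7058 and 4341 to 5511). None of the 14 was at 0. The 10 neutrophil genes had medians of 443.8 CPM with DMSO and 30.8, 8.52 and 7.45 CPM with drug, where Elane was at 0 at 1 µM. The 10 genes that mark mature dendritic cells summed to a median of 1859 CPM at t0, 10420 with DMSO and 46180, 59230 and 67210 CPM with drug in GM cultures, and to 6669, 13820 and 52230 CPM in the FL groups. The 12 genes of dividing cells summed to 1590 CPM at t0 and 325.1 with DMSO in GM cultures and to 1306 and 572.4 CPM in FL cultures. With drug they summed to 303.6, 193.2 and 183.7 CPM at the rising GM doses, and 11 of the 12 fell at 0.5 and at 1 µM. In FL cultures the neutrophil genes summed to 1296 to 4324 CPM at t0, 2137 to 10050 CPM with DMSO and 188.6 to 3730 CPM with drug. In GM cultures at t0 they summed to 296.1 to 352.0 CPM. The 10 mast cell and basophil genes summed to 205.4 to 817.1 CPM in FL and 41.2 to 57.9 CPM in GM cultures at t0, with Mcpt4 at 0 in both. There 10 of 10 neutrophil and 6 of 9 tested mast cell and basophil genes were called higher in FL cultures, beside 23.4% of all genes. At t0 the 10 cDC1 genes summed to 3183 to 7370 CPM in FL and 1392 to 1515 CPM in GM cultures, with none at 0 in either. Of the 10, however, Xcr1, Clec9a and Cadm1 stayed under 1 CPM in every GM library at t0, and 0 did so in FL cultures. In FL cultures the 10 genes had medians of 3760 CPM at t0, 1847 CPM with DMSO and 2693 CPM with drug. The monocyte and macrophage genes summed to 840.1 to 1035 CPM in FL and 20040 to 25600 CPM in GM cultures at t0. The part of these shifts in the results was not tested, and in bulk RNA fewer cells of a type and less RNA per cell cannot be told apart.

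Among the mitochondrially encoded genes mt-Nd1, a core membrane subunit of complex I, differed most between drug and DMSO. Its scaled level was 3177, 2994 and 4445 CPM in the GM DMSO libraries, 5623, 4330 and 4214 CPM at 0.1 µM, 5907, 5004 and 5481 CPM at 0.5 µM, and 11393, 4666 and 5095 CPM at 1 µM. All libraries at 0.5 and 1 µM lay above all DMSO libraries, whereas those at 0.1 µM overlapped them. The log2 difference was 0.49 ± 0.29 (SE) at 0.1 µM (adjusted p = 0.2), 0.72 ± 0.29 at 0.5 µM (adjusted p = 0.0466) and 1.11 ± 0.29 at 1 µM (adjusted p = 0.00415), and 0.55 ± 0.19 at 1 µM without library 1 (adjusted p = 0.0216). The call at 0.5 µM is a fragile one. There 0 mitochondrially encoded genes were called without DMSO library 1, without DMSO library 2 or without any 1 of the 0.5 µM libraries. DESeq2 and the model of all 24 libraries called 0 as well. Beside these, 36.4% to 55.2% of all genes were called. In other fits 3 were called: without DMSO library 3 (50.5% of all genes), with the replicate block (54.9%) and with only the compared groups (57%). With no low-count filter 6 were called (30.6%). At 1 µM mt-Nd2 rose by 1.03, mt-Nd5 by 0.81, mt-Nd4 by 0.77 and mt-Cytb by 0.73, and without library 1 these were 0.48, 0.36, 0.26 and 0.21 and did not pass. The most abundant of them, mt-Co1, had a difference of 0.58 ± 0.27 (adjusted p = 0.0822), and 0.09 without library 1.

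From t0 to DMSO in GM cultures mt-Nd5 rose by 0.89, mt-Cytb by 0.82 and mt-Nd4 by 0.81, while mt-Nd1 had a difference of 0.26 (adjusted p = 0.495). The level of mt-Cytb, the mitochondrially encoded subunit of complex III, was 4113, 2565 and 3579 CPM at t0 and 5861, 5183 and 7166 CPM with DMSO, so that the groups did not overlap. These calls depended on single libraries. The 4 fell to 0 without t0 library 2 or without DMSO library 3, beside 39.4% and 42.2% of all genes called. They were 2 to 4 without any other, beside 40% to 42.1%. mt-Nd6, which is transcribed from the opposite strand to the other 6 and whose reads cannot be told apart from antisense reads where the strand setting is unknown, rose by 1.81 from 4.13, 2.52 and 6.20 CPM to 8.99, 13.3 and 23.4 CPM (adjusted p = 0.0435). In FL cultures mt-Cytb rose by 1.03 ± 0.26 from t0 to DMSO (adjusted p = 0.0412; 1682, 2080 and 2042 CPM against 2951, 4982 and 3875), and in the fit with the culture as a block mt-Nd2, mt-Nd4 and mt-Nd5 rose as well, by 0.76, 0.98 and 1.03. All 7 genes were higher with DMSO than at t0 in each of the 3 FL cultures. At t0 FL cultures had less mt-Cytb and mt-Nd5 than GM cultures, by a log2 difference of -0.82 for both; neither passed without the FL t0 library of culture 91, GM t0 library 1 or GM t0 library 3.

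The make-up of the mitochondrially encoded counts is a ratio within a library and does not depend on scaling. Of the counts of the 7 genes, mt-Nd1 took 12.6% ± 0.318 (SD, n = 3) in GM cultures at t0, 9.68% ± 0.230 with DMSO, and 12.4% ± 0.356, 12.5% ± 0.0627 and 12.4% ± 0.565 at 0.1, 0.5 and 1 µM. The DMSO libraries, at 9.47% to 9.93%, lay below every t0 and every treated GM library, of which the lowest had 12.0%. mt-Co1 took 50.3% at t0, 49.0% with DMSO (48.7% to 49.4%) and 45.3%, 43.7% and 44.2% with drug, and the highest of 9 treated libraries, at 45.9%, lay below the lowest DMSO library. In library 1 at 1 µM mt-Nd1 took 13.1% and mt-Co1 43.7%, against 12.0% and 12.2%, and 44.7% and 44.3%, in the other two. In FL cultures mt-Nd1 took 15.0% at t0, 12.4% with DMSO and 13.4% with 0.05 µM, with overlap between DMSO and drug (11.8% to 13.3% and 12.9% to 13.9%), and mt-Co1 53.6%, 49.1% and 48.1%. A ratio of this kind shows unequal change and not which gene moved; these shares were chosen after their values were seen and carry no test.

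In complex I, which holds 36 of the nuclear members, rises and falls stood side by side at every GM dose, as they did over all genes. At 0.1 µM 2 rose and 5 fell (19.4% called, beside 40.3% of all genes, 19.9% up and 20.3% down). At 0.5 µM 4 rose and 7 fell (30.6% beside 53.5%, 25.8% up and 27.7% down). At 1 µM 8 rose and 5 fell (36.1% beside 55.1%, 26.9% up and 28.2% down). Ndufv2, an iron-sulfur subunit of the NADH-oxidising arm, moved most. It had 108, 112 and 96.7 CPM with DMSO, 185, 183 and 153 CPM at 0.1 µM, 205, 228 and 193 CPM at 0.5 µM and 353, 229 and 199 CPM at 1 µM. No treated library overlapped the DMSO group, and library 1 at 1 µM was the highest. The log2 differences were 0.79 ± 0.17 (SE; adjusted p = 0.000947), 1.08 ± 0.17 (adjusted p = 3.21e-05) and 1.42 ± 0.17 (adjusted p = 1.38e-06), and 1.11 ± 0.10 at 1 µM without library 1. In FL cultures Ndufv2 went from 88.3 to 123.5 CPM in culture 91, from 137 to 210.4 in culture 94 and from 117 to 252 in culture 95 between DMSO and 0.05 µM. This was a log2 difference of 0.77 ± 0.29 (adjusted p = 0.205), or 0.74 ± 0.16 with the culture as a block (adjusted p = 0.0381). It was higher with drug in 3 of 3 FL cultures, although the groups overlapped.

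Other complex I rises were in accessory subunits. Ndufb4, of the membrane arm, rose by 0.68 at 0.5 µM and by 0.97 at 1 µM (0.63 without library 1), Ndufab1, the mitochondrial acyl carrier protein, by 0.54 and 0.78 (0.45), and Ndufs5 by 0.42, 0.59 and 0.65 over the 3 doses (0.46). The falls included core subunits. Ndufs8, an iron-sulfur protein of the arm that reduces ubiquinone, had 46.0, 43.3 and 34.02 CPM with DMSO and 25.3, 25.01 and 30.2 CPM at 0.1 µM, 22.8, 24.7 and 24.7 CPM at 0.5 µM and 34.4, 23.4 and 22.4 CPM at 1 µM. Its groups did not overlap with DMSO at the lower doses, and at 1 µM library 1 alone reached the DMSO range. It fell by 0.55, 0.68 and 0.51 on the log2 scale at the 3 doses, and by 0.76 at 1 µM without library 1. Ndufb11, a membrane arm subunit, fell by 0.56, 0.64 and 0.50, and Ndufv3, an accessory subunit beside Ndufv2 in the same arm, by 0.47, 0.61 and 0.36. Ndufs1, an iron-sulfur protein of the same arm, fell by 0.38 at 0.5 µM and 0.63 at 1 µM. It was the one of these that was lowest in library 1, at 26.8 CPM against 37.6 and 37.3 CPM, and it fell by 0.51 without that library. Ndufb2, an accessory subunit, fell by 0.87 at 0.5 µM and 0.61 at 1 µM. Between 17.5% and 21.7% of the windows of Ndufs5, Ndufb4 and Ndufb11 also occur in other genes, so their counts are less certain than those of Ndufv2 and Ndufs8, where 0% do. The same limit holds for members named below: the share was 17.74% for Ndufa12, 17.65% for Uqcrc2, 14.34% for Atp5f1 and 11.1% for Atp5g1.

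The promoters of members that moved in opposite directions at all 3 doses are printed for comparison: those of Ndufv2 and of Atp5h, the ATP synthase member that rose most, and those of Ndufs8 and Ndufb11, which fell. Each runs from 250 bases before to 50 after the RefSeq start of the gene (GRCm38.p6), on the gene's strand, which is the minus strand for all 4. They lie at chr17:66101510-66101809, chr11:115419870-115420169, chr19:3912725-3913024 and chrX:20617570-20617869. Capitals mark a match to ACTTCCGG, the reverse complement of CCGGAAGT, a motif of GABP and other ETS factors:
Ndufv2: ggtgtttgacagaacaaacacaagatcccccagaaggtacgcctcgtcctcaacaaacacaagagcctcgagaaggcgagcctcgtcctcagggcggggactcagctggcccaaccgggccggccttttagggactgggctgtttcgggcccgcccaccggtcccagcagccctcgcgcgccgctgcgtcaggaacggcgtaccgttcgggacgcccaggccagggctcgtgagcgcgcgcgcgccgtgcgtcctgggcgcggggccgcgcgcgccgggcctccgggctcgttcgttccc
Atp5h: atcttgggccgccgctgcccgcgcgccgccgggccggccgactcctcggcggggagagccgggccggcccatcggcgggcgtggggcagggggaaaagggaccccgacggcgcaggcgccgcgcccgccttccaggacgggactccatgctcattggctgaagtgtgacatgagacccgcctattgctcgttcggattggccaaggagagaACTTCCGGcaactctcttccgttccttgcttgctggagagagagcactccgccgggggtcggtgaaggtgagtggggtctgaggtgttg
Ndufs8: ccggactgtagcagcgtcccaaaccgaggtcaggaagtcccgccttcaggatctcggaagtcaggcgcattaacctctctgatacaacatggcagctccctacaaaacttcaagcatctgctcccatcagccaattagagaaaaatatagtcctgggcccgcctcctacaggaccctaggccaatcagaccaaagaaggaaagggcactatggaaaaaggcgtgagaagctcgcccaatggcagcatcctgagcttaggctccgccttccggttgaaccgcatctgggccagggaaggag
Ndufb11: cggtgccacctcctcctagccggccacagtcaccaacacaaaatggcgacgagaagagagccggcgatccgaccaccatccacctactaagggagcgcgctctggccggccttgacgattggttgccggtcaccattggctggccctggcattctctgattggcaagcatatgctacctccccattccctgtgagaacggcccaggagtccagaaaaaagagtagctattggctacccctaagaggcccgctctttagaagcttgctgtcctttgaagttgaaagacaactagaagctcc
Of the 72 nuclear members 62 had a promoter in the RefSeq table. The motifs searched, on both strands, are named by factors known to act on respiratory chain genes. CGCATGCG (NRF1) was found in 10 of the 62 (16.1%) beside 2.07% of the 27025 genes with a promoter, AAGATGGC (YY1) in 11 (17.7%) beside 3.19%, and CCGGAAGT (GABP) in 4 (6.5%) beside 4.31%. At 0.5 µM in GM cultures 33.3% of the 72 nuclear members were called, beside 53.5% of all genes (25.8% up and 27.7% down). Of the 10 members with the NRF1 motif, among them Atp5g2, Ndufaf5 and Uqcrc1, 0 rose and 1, Uqcr11, fell at this dose. Of the 11 with the YY1 motif 1 rose, Atp5f1, and 1 fell, Ndufaf8. The GABP motif was found in Atp5h and Uqcrh, which rose at that dose, in Uqcr11, which fell, and in Ndufs3, which was not called. The search describes letters in these windows and is not evidence of a factor at work.

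From t0 to DMSO in GM cultures 7 complex I subunits fell and 1 rose (22.2% called, beside 47.5% of all genes, 27.2% up and 20.3% down). Ndufa12, an accessory subunit, went from 31.7, 33.3 and 32.4 CPM to 21.4, 19.8 and 17.1 CPM (log2 difference -0.75), Ndufa9 fell by 0.54 and Ndufa11 by 0.495, and Ndufb4 rose by 0.52. In FL cultures Ndufs8 fell by 0.82 from 42.8, 41.6 and 42.8 CPM to 18.8, 26.1 and 26.8 CPM, Ndufa9 fell by 0.73 and Ndufb4 rose by 0.76 (adjusted p = 0.0497). At t0 18 of the 36 were lower and 0 higher in FL than in GM cultures, beside 17.5% and 23.4% of all genes. Their median log2 difference was -0.44 beside 0.09 over all genes. The largest of those called were Ndufv3 (-0.87), Ndufc1 (-0.78) and Ndufb2 (-0.73), and Ndufv2, at 92.96 CPM in FL and 91.86 CPM in GM cultures, differed by 0.02 ± 0.23.

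The 7 assembly factors build complex I and are not part of the finished enzyme. Ndufaf8, the small partner of the hydroxylase Ndufaf5, fell at all 3 GM doses, by 0.83, 0.87 and 0.65, from 11.1, 10.5 and 8.13 CPM with DMSO to 5.04, 5.18 and 5.02 CPM at 0.5 µM. Ndufaf3, which joins the ubiquinone-reducing arm, rose by 0.35, 0.38 and 0.58. Ndufaf5 and Ndufaf2 rose by 0.59 and 0.45 at 1 µM and did not pass without library 1, and 64.1% of the windows of Ndufaf2 also occur in a non-coding gene, so its counts are uncertain. Ndufaf7, a methyltransferase, fell by 0.83 from t0 to DMSO in GM cultures (15.5, 14.9 and 16.9 CPM against 8.79, 9.81 and 8.22 CPM) and by a further 0.57 and 0.34 at 0.1 and 0.5 µM. At 1 µM its difference was -0.16 (adjusted p = 0.275). Ndufaf4, which works with Ndufaf3, fell by 0.49 from t0 to DMSO.

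Complex II is the succinate dehydrogenase of the citric acid cycle. At t0 all 4 subunits were lower in FL than in GM cultures, beside 17.5% of all genes called lower, and no FL library overlapped the GM group. The same lack of overlap held for 32 of 36 subunits of complex I, 7 of 8 of complex III, 14 of 16 of the ATP synthase and 62.2% of all genes, so it is not particular to complex II. Sdha, the flavoprotein that oxidises succinate, had 262, 248 and 259 CPM in GM and 170.4, 149 and 163 CPM in FL cultures (log2 difference -0.67 ± 0.10, adjusted p = 2.31e-05). Sdhb, the iron-sulfur subunit, had 90.9, 99.6 and 87.9 CPM against 66.2, 60.8 and 67.9 CPM (-0.51). The membrane anchors Sdhc and Sdhd differed by -0.87 and -0.70, Sdhc with 110, 106 and 97.7 CPM in GM and 50.5, 58.1 and 63.2 CPM in FL cultures. With drug in GM cultures 1 subunit was called: Sdhb fell by 0.33 at 0.5 µM (adjusted p = 0.012). At 1 µM its difference was -0.24 (adjusted p = 0.0611) with all libraries and -0.37 (adjusted p = 0.00206) without library 1, where Sdhc fell as well by 0.30. Sdhd fell by 0.45 from t0 to DMSO in GM cultures, from 199, 199.8 and 179 CPM to 148, 139 and 139 CPM. In FL cultures it went the other way by 0.11 (adjusted p = 0.641). The difference between these changes was 0.55 ± 0.16 (adjusted p = 0.0595 in edgeR's test of the interaction), and 0.55 ± 0.14 with the culture as a block (adjusted p = 0.0158), although the GM numbers do not meet the rule for pairs.

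Complex III held 8 nuclear members. Uqcrh, the hinge protein beside cytochrome c1, had 189, 154 and 155 CPM at t0, 260.3, 251 and 227 CPM with DMSO, 307, 257 and 257 CPM at 0.1 µM, 321, 321 and 318 CPM at 0.5 µM and 476, 322 and 348 CPM at 1 µM. It was higher with DMSO than at t0 in every library, and higher again at 0.5 and 1 µM than with DMSO. It rose by 0.56 from t0 to DMSO and by 0.47 and 0.75 at 0.5 and 1 µM (0.53 without library 1). In FL cultures it rose by 0.67 from t0 to DMSO (adjusted p = 0.0495), with 139, 182 and 192 CPM against 289.8, 295 and 229 CPM. Uqcrc2, a core protein, rose at all 3 doses by 0.24, 0.36 and 0.39 and had fallen by 0.20 from t0 to DMSO. Its partner Uqcrc1 fell by 0.42 from t0 to DMSO in GM cultures and by 0.62 in FL cultures, with 111, 110.2 and 114 CPM at t0 and 78.7, 63.7 and 74.8 CPM with DMSO in the latter, and was not called at any dose. Uqcr11, a small subunit, fell by 0.48 at 0.5 µM and 0.33 at 1 µM, and Uqcrfs1, the Rieske iron-sulfur protein, rose by 0.235 at 1 µM but not without library 1. From t0 to DMSO in GM cultures 5 of the 8 fell, beside 20.3% of all genes, Uqcr10 by most (0.47). At t0 5 of the 8 were lower in FL cultures, beside 17.5% of all genes, Uqcr10, Uqcr11 and Uqcrc1 by -0.59, -0.51 and -0.51.

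In the ATP synthase 4 of 16 members rose and 1 fell at each GM dose, and they were the same 5 genes. This was 31.2% of the 16, beside 40.3%, 53.5% and 55.1% of all genes called at 0.1, 0.5 and 1 µM. Atp5h, subunit d of the peripheral stalk, had 202, 212 and 189 CPM with DMSO, 273, 247 and 244 CPM at 0.1 µM, 294, 339.9 and 291 CPM at 0.5 µM and 478, 337 and 328 CPM at 1 µM. No treated library overlapped DMSO. It rose by 0.41 ± 0.13, 0.71 ± 0.13 and 1.04 ± 0.13, and by 0.82 ± 0.09 at 1 µM without library 1; 19.9% of its windows also occur in pseudogenes. Atp5f1, subunit b of the same stalk, rose by 0.29, 0.39 and 0.53, and Atp5b, the catalytic beta subunit, by 0.29, 0.305 and 0.28. Atp5mpl, a small membrane proteolipid, fell by 0.48, 0.66 and 0.43. From t0 to DMSO in GM cultures 5 fell and 1, Atp5h, rose by 0.36 (37.5% called, beside 47.5% of all genes). Atp5o, the protein that joins the stalk to the catalytic head, fell by 0.51, and by 0.60 in FL cultures (67.5, 62.4 and 67.7 CPM against 39.6, 48.4 and 41.9 CPM). The symbol Atp5o names more than 1 annotated gene. In 1 of them 41.6% of the windows also occur in other annotated genes, and in another 89.8% do, there with a transcript of Donson among them. The counts of Atp5o are therefore uncertain. At t0 7 of the 16 were lower in FL than in GM cultures, beside 17.5% of all genes. Atp5e was at -0.695, Atp5o at -0.685 and Atp5a1, the alpha subunit, at -0.58.

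The c ring of the ATP synthase is encoded by 3 genes whose mature proteins are the same, and they did not move alike. Atp5g1 had 103, 110.1 and 104 CPM at t0 in GM cultures, 63.6, 55.0 and 52.9 CPM with DMSO, 84.7, 77.7 and 76.9 CPM at 0.1 µM, 66.7, 73.2 and 64.3 CPM at 0.5 µM and 102, 66.4 and 70.8 CPM at 1 µM. It was highest at t0, lowest with DMSO and between them at 0.1 and 0.5 µM, with no overlap of these groups. It fell by 0.90 ± 0.14 from t0 to DMSO (adjusted p = 2.71e-05) and rose by 0.55, 0.345 and 0.595 at the doses, and by 0.35 at 1 µM without library 1. Atp5g3 fell by 0.47 from t0 (253, 223 and 227 CPM) to DMSO (184, 169.5 and 157 CPM) and was not called with drug. Atp5g2 kept group means of 59.8 to 65.9 CPM in all 5 GM groups and passed no test there, and 38.4% of its windows also occur in other genes. In FL cultures Atp5g1 fell by 0.68 and Atp5g3 by 0.49 from t0 to DMSO in the fit with the culture as a block (adjusted p = 0.0181 and 0.042), and Atp5g1 was lower in 3 of 3 cultures.

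Ndufa4, long counted with complex I and now placed in complex IV, was the one member higher in FL than in GM cultures at t0, with 83.4, 111 and 97.5 CPM against 51.4, 52.8 and 58.9 CPM (log2 difference 0.84 ± 0.16, adjusted p = 0.000315). In GM cultures it fell by 0.34 from t0 to DMSO and rose by 0.29 and 0.38 at 0.5 and 1 µM. Its paralog AA467197, known as Nmes1 and able to take its place, differed in the opposite direction between culture types. It had a mean of 339.6 CPM ± 58.7 (SD, n = 3) in GM and 26.2 CPM ± 1.39 in FL cultures at t0, a log2 difference of -3.70 ± 0.40 (adjusted p = 3.42e-07). With DMSO in GM cultures it fell to 116 CPM ± 27.6 (log2 difference -1.56), and at 0.1, 0.5 and 1 µM it stood at 202 CPM ± 38.2, 158 CPM ± 24.1 and 167 CPM ± 44.9, a rise of 0.88, 0.54 and 0.64. The comparisons of DMSO with t0 and of drug with DMSO share the DMSO libraries, here and for Atp5g1, Atp5b, Uqcrc2 and Uqcrfs1, which also fell in the first and rose in the second.

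**Figure D4:**
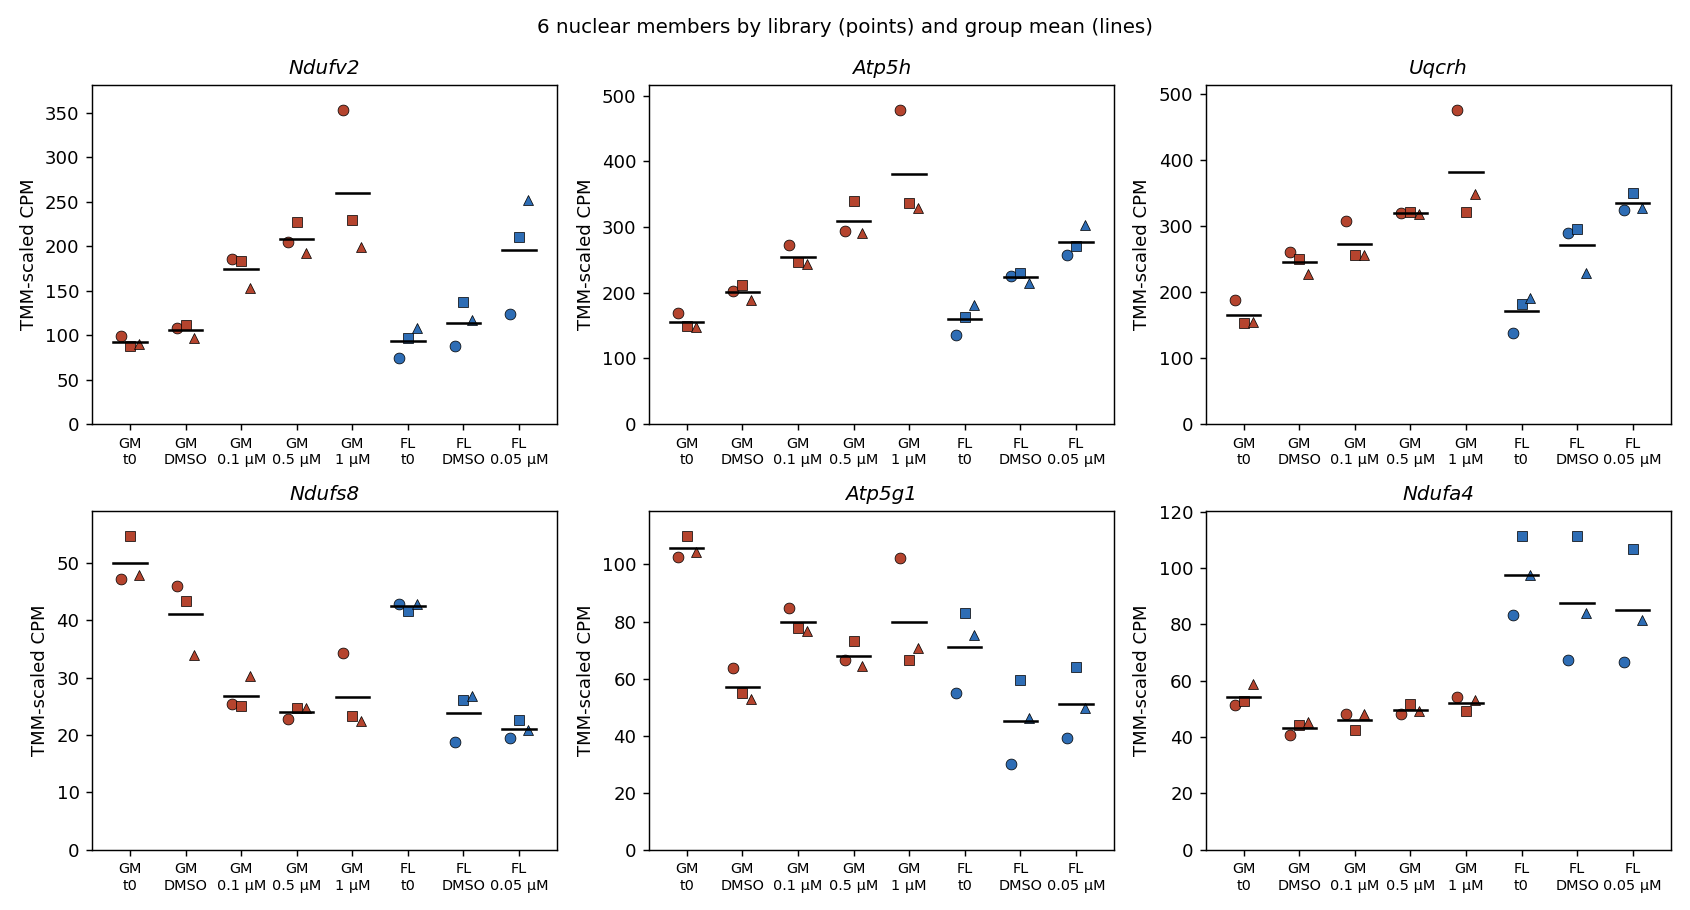
Scaled CPM of Ndufv2, Atp5h, Uqcrh, Ndufs8, Atp5g1 and Ndufa4 in the 24 libraries, with lines at group means and circles, squares and triangles for libraries 1, 2 and 3 or cultures 91, 94 and 95. Ndufv2 and Atp5h lie above DMSO in every treated GM library, Atp5g1 is highest in GM cultures at t0, and Ndufa4 is higher in every FL than in every GM library.

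**Figure D5:**
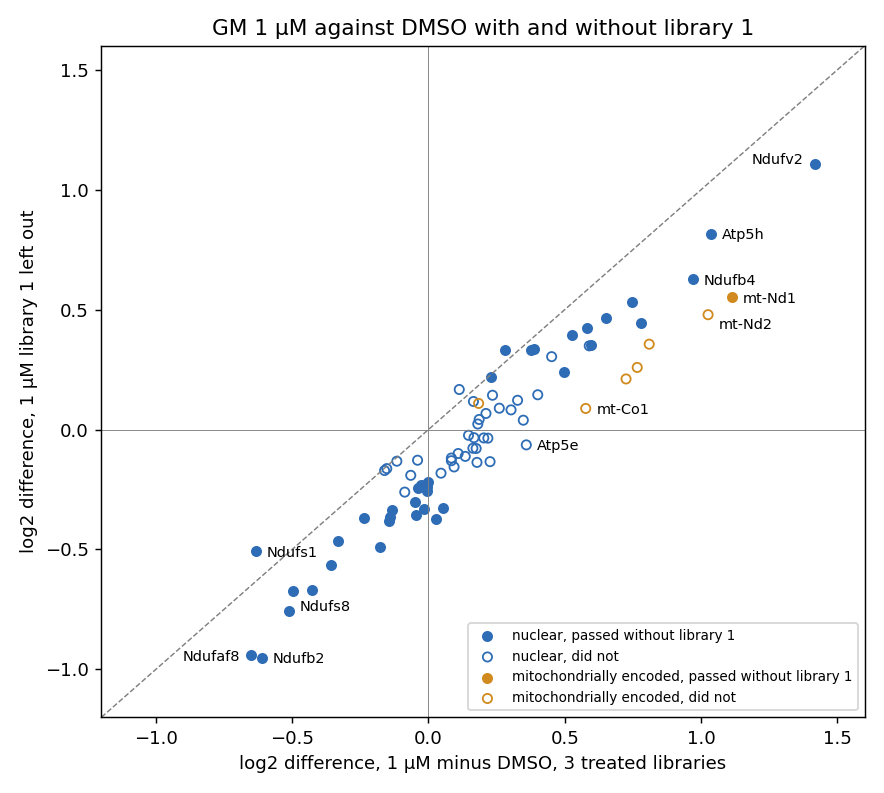
Log2 difference between 1 µM and DMSO in GM cultures for the 79 members with all 3 treated libraries (x axis) and without library 1 (y axis); filled points passed without library 1. Most members lie below the dashed line of equal values, Ndufv2 moves from 1.42 to 1.11, mt-Nd1 from 1.11 to 0.55, and Ndufs1 lies above the line.

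Genes around the respiratory chain were counted by lists. At 0.5 µM in GM cultures 53.5% of all genes were called, 25.8% up and 27.7% down. The list counts at this dose are to be read beside that share. At 0.5 µM in GM cultures 4 of 15 tested nuclear subunits of complex IV rose and 3 fell (median log2 difference -0.01, beside -0.03 over all genes), and 7 of 21 genes of the citric acid cycle and pyruvate entry rose and 7 fell. Larger changes lay in regulators and neighbours of the chain. Cox17, the copper chaperone of complex IV, rose by 1.67 from a mean of 29.5 to 88.0 CPM (adjusted p = 3.09e-07), and was the one gene of these lists called in FL cultures with 0.05 µM, by 0.87 (adjusted p = 0.0233). Gpd2, which feeds electrons from glycerol phosphate into ubiquinone, rose by 1.71 from 69.7 to 213 CPM, and Sqor, which does so from sulfide, fell by 2.15 from 68.9 to 14.5 CPM. Among 12 modulators of respiration 2 rose and 6 fell. Ucp2, an uncoupling protein homolog, fell by 1.48 from 1388 to 465 CPM, Pdk1, the kinase that closes the pyruvate dehydrogenase, by 2.78 from 70.1 to 9.58 CPM. The carriers of phosphate and of ADP and ATP, Slc25a3 and Slc25a4, rose by 0.91 and 0.80. Of 13 regulators of mitochondrial biogenesis 4 rose and 7 fell, with Ppargc1a at 0.311 CPM with DMSO and 2.24 CPM with drug (log2 difference 3.00), log2 differences of -1.61 for Tfeb, which drives lysosomal and mitochondrial genes, and -1.44 for Myc. Of 23 genes of mitochondrial DNA transcription and RNA handling 3 rose and 7 fell, among them the polymerase Polrmt, by 0.58.

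From t0 to DMSO in GM cultures the citric acid cycle list moved with the nuclear members. Of its 21 genes 16 fell and 1 rose, beside 20.3% and 27.2% of all genes, with a median of -0.31 beside 0.09 over all genes. Idh3a, a subunit of the isocitrate dehydrogenase, fell by 1.365 from 60.3 to 23.6 CPM, and Fh1, the fumarase, by 1.03 from 101.5 to 50.0 CPM. Cycs, cytochrome c, fell by 0.81 in GM and by 1.12 in FL cultures. Slc25a5, a carrier of ADP and ATP, fell by 0.96 in GM cultures and fell by 1.32 in FL cultures. At t0 11 of 21 citric acid cycle genes and 5 of 15 nuclear complex IV genes were lower in FL than in GM cultures and 0 of either were higher. Of all genes 17.5% were called lower and 23.4% higher. Ogdh was at -1.10 and Mdh2 at -0.86.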

How the data were processed

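RNA sequencing libraries (TruSeq Stranded mRNA kit, NovaSeq6000, per the labels' protocols) were made from 24 samples in 8 groups of 3. Per the submitters' processing notes, the authors used STAR 2.7.3a, HTSeq 0.12.4 and DESeq2 1.30.1 with GRCm39; the deposited values are whole counts per gene. Neither annotation release nor strand setting was known here. Lines that name no gene held 10.98% to 16.42% of each library and were left out. Of 55414 gene identifiers 52133 were named with GENCODE M21 (GRCm38), which also gave biotypes and lengths.

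Counts were tested with edgeR 4.0.16 (R 4.3.3; TMM scaling, filterByExpr, robust quasi-likelihood fit, no covariates) in models of the 15 GM libraries (16152 genes), the 9 FL libraries (15961 genes) and all 24 (17262 genes, for FL against GM and for differences between culture types), p-values being adjusted by Benjamini-Hochberg over each model's genes and called under 0.05. The fit was tested on simulated data. CPM per library use TMM factors over all 24 libraries, while the choice of members uses plain CPM. Same-numbered FL libraries are from 1 culture by their labels and varied together, with correlations of 0.135 to 0.689 in 9 of 9 pairs, so the fit with the culture as a block is given where it changed a call. DESeq2 1.42.0, other scalings, filters, sample sets and left-out libraries were alternatives. Windows of 50 bases shared between transcripts were counted in the GENCODE M21 sequences, and promoters came from RefSeq (GRCm38.p6); the length of the motifs was set after a first search with longer forms.

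Members and lists were chosen with earlier results of these data known. Named were all mitochondrially encoded members, complex II, the c-ring genes, Ndufa4 and its paralog, and in each other class the called members of largest change in each comparison, up to 3 each way (2 in FL comparisons); members that repeat across doses, the slope calls and Cycs and Slc25a5 were added after their values were seen.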

Additional observations from a re-analysis of the deposited data

How the results depend on the processing

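The number of members called, out of 79, was recomputed under each alternative. The share of all genes called in the same fit stands beside it in brackets. For 0.1 µM against DMSO in GM cultures (17, 40.3%) it was 8 in the model of all 24 libraries (22.4%). For 1 µM (32, 55.1%) it was 19 with only the compared groups (50.5%) and 18 in the model of all libraries (38.4%). For the dose slope (5, 20.4%) it was 8 with median-of-ratios scaling (21%), 16 with no filter (12.7%) and 10 with DESeq2 (24.4%). With the replicate block it was 10 (23%) and in the model of all libraries 1 (3.87%). For 0.05 µM in FL cultures (0, 2.90%) it was 1 with the culture as a block (6.88%) and 4 in the model of all libraries (15.8%). It was 2 without culture 91 (14.1%), a choice made after seeing the data. For DMSO against t0 in FL cultures (7, 10.1%) it was 2 with no filter (4.55%), 15 with DESeq2 (21.9%) and 17 with the block (19.5%). With only the compared groups it was 1 (3.92%) and in the model of all libraries 22 (30.7%). For FL against GM at t0 (38, 40.9%) it was 62 with only the compared groups (56.5%). For the difference in the change from t0 to DMSO (0) it was 1 with median-of-ratios scaling, with DESeq2 and with the block, which called Sdhd (adjusted p = 0.0158 in edgeR's test). With 1 library left out in turn the counts ranged from 11 to 15, 20 to 27 and 23 to 39 at the 3 GM doses. The shares of all genes were 32.2% to 38.7%, 45.6% to 50.5% and 47.8% to 53%. For the slope the counts were 2 to 10 (12.1% to 19.8%), and for GM DMSO against t0 20 to 25 (39.4% to 42.2%). In FL cultures they were 0 to 2 with drug (0.103% to 12%) and 0 to 6 for DMSO against t0 (0.0787% to 8.86%). For FL against GM they were 21 to 32 (32.6% to 34.6%). Both differences between culture types had 0 to 1, beside 2.75% to 10.4% for the change from t0 to DMSO and 0.526% to 3.29% for the drug response. The cause of these shifts was not tested, except that fewer libraries entered the fits of compared groups alone. In GM cultures same-numbered libraries had correlations of 0.01 to 0.226, all above 0 but only 7 of 30 above 0.1, against at most 0.057 in 60 pairs of different numbers. This hints at pairs but misses the rule that every pair exceed 0.1. The block gave 20, 32 and 35 calls at the doses, beside 42.2%, 54.9% and 56.4% of all genes. At 0.5 µM 3 of them were mitochondrially encoded in place of 1. For DMSO against t0 the block gave 32, beside 49.3% of all genes. A CPM minimum of 1 (84 members) or 20 (67 members) left every count within 1.5 times its value. For 48 results on named genes, 534 alternative values kept direction and side of the threshold, 104 lost the call and 0 reversed. Of the low members, mt-Nd6 ranged from 7.31 to 37.9 CPM and Ndufaf8 from 5.02 to 5.18 CPM in the GM 0.5 µM libraries. Whether depth limits such members was not tested.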
